A study of Homo sapiens with 6 samples.

Results

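The genes described here are 32 genes of the lysosome and of autophagy, matched by name in the deposited table of 26025 genes. They comprise 3 transcription factors of the TFEB family, 4 lysosomal membrane proteins, 10 lysosomal hydrolases and lumen proteins, 2 subunits of the lysosomal proton pump and 13 genes of the autophagy machinery. The question was whether norepinephrine changed the level of their transcripts, with the hydrolases kept apart from the autophagy machinery. All 32 genes passed the minimum of a mean of 10 normalized counts and were among the 15013 genes tested.

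RNA was sequenced from NCI-H1299 cells, a human line established from non-small cell lung cancer. The Ctrl group held 3 samples and the NE group held 3 samples treated with 10 µM norepinephrine for 48 h. Both groups were first serum-starved and then kept in medium with a low share of serum. The sample labels name the vehicle of the Ctrl cells both as DMSO and as PBS, so the vehicle is not certain. The labels do not say whether the samples of a group were separate cultures, and p-values then measure only the spread between these samples, which may be technical. All samples come from 1 cell line, and at the level of bulk RNA fewer cells that use a gene and less RNA of it per cell cannot be told apart.

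Lysosomes are acidic organelles in which hydrolases break down proteins, lipids and sugars delivered by endocytosis and by autophagy. In autophagy, the ULK kinases start a membrane that the class III PI3-kinase complex with BECN1 helps to form, ATG7 and the ATG12-ATG5-ATG16L1 complex attach LC3 and GABARAP proteins to it, and receptors such as SQSTM1 bring in cargo. TFEB, TFE3 and MITF are related transcription factors that bind the E-box CACGTG in many lysosomal and autophagy promoters, and they are held in the cytoplasm when mTORC1 on the lysosome phosphorylates them. Norepinephrine acts through adrenergic receptors, which can raise cAMP and activate the factor CREB, whose full binding element is TGACGTCA.

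Promoter sequences are shown here to describe where these elements lie in single genes of the set. The promoter windows of RefSeq on GRCh38.p14 ran from 250 bases before to 50 bases after each annotated start, and 27 of the 32 genes had at least 1 window, with 35 windows in all. CACGTG, which reads the same on both strands, was found in 6 of the 35 windows (17.1%), compared with 7.26% of all 35116 windows. Its extended form TCACGTGA, which contains CACGTG, was found in 4 of the 35 windows (11.4%) and in 0.98% of all windows. TGACGTCA, also the same on both strands, was found in 2 of the 35 windows (5.71%) and in 1.85% of all windows. A match is a description of these letters and not of binding, and the windows of 1 gene can overlap.

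The 6 genes with CACGTG were ATP6V0D1 (chr16:67481185-67481242, minus strand), CTSA (chr20:45891268-45891341, plus strand), CTSD (chr11:1763944-1763999, minus strand), LAMP1 (chr13:113297022-113297248, plus strand), MCOLN1 (chr19:7522557-7522633, plus strand) and NEU1 (chr6:31862917-31862972, minus strand). The sequences are written 5′ to 3′ on the strand of the gene, with CACGTG or TCACGTGA in capitals and up to 25 bases on each side. LAMP1 held 6 copies in its window, CTSA and MCOLN1 held 2 copies each, and the other three held 1 copy each.
ATP6V0D1: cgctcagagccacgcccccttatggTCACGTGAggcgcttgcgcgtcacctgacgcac
CTSA: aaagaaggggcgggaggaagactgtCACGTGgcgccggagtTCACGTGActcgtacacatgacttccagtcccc
CTSD: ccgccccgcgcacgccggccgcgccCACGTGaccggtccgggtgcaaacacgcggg
LAMP1: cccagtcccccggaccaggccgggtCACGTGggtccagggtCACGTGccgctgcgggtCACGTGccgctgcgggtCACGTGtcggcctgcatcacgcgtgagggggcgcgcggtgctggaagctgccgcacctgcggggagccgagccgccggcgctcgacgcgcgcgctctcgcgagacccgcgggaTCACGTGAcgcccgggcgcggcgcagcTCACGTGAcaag
MCOLN1: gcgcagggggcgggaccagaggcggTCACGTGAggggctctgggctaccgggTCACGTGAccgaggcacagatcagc
NEU1: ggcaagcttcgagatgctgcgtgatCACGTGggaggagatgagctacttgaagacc

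TGACGTCA, in capitals below, was found in the window of GABARAPL1 (chr12:10212822-10212879, plus strand), from 30 to 23 bases before the start. It was also found before 1 of the starts of MITF (chr3:69936415-69936472, plus strand), from 152 to 145 bases before that start.
GABARAPL1: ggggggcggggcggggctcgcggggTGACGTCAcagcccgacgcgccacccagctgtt
MITF: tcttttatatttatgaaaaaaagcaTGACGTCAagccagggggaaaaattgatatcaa

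Several facts of the whole series bear on the values below. The libraries held 16852751 to 17979206 reads on genes. Ctrl replicate 3 stood apart, with 7305 genes at 0, compared with 3954 to 4833 in the other 5 libraries. Over 14955 genes, the log2 difference of NE minus Ctrl fell with the GC content of the exons (Spearman's rho -0.64, given as a description), and Ctrl replicate 3 minus Ctrl replicate 1 did as well (-0.52). Among the markers of the cell line, KRT8, KRT18 and VIM were high in every library, though lower in NE than in Ctrl. KRT8 had 9793 to 14180 normalized counts in Ctrl and 5232 to 6448 in NE. KRT18 had 17852 to 24941 in Ctrl and 6679 to 7602 in NE, and VIM had 60813 to 78252 in Ctrl and 45300 to 58317 in NE. Of the macrophage markers, CD14 and CSF1R had at most 7.33 normalized counts, and ITGAM had 54.9 to 76.5 in Ctrl and 31.1 to 43.6 in NE. PTPRC and MARCO were not found by name among the 26025 genes. Of the melanocyte markers, MLANA and DCT had at most 10.9, PMEL had 9.80 to 28.7, and TYR was not found by name either. Endothelial PECAM1 had 16.5 to 36.6 normalized counts and CDH5 at most 9.80, and fibroblast DCN, LUM and PDGFRB had at most 18.8.

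Most of the lysosome and autophagy genes that passed the test were lower in NE-treated cells, and of those that passed, TFEB and TFE3 had the largest log2 fold changes before GC correction. MITF, which did not pass the test, had a larger value than TFE3, and after GC correction TFE3 was smaller in size than GABARAPL1, NPC2, ATG7, HEXA and ATG12. At a Benjamini-Hochberg adjusted p under 0.05 in limma, 3 of the 32 genes rose, namely LAMP2, GABARAPL1 and UVRAG, compared with 24.6% of all genes tested. The test called 16 genes lower, compared with 25.5% of all genes. These were TFEB, TFE3, LAMP1, CTSA, CTSB, CTSD, CTSZ, GLB1, HEXA, NEU1, NPC2, ATP6V0D1, SQSTM1, ULK1, ATG7 and ATG16L1. The median log2 fold change of the 32 genes was -0.36, and that of all genes tested was 0.010. With a log2 fold change of 1 or more in either direction also required, the fold criterion of the study's methods, 0 of the 32 genes were higher, compared with 7.47% of all genes. By the same rule 2 genes were lower, TFEB and TFE3, compared with 6.55% of all genes. The 3 NE libraries lay above all 3 Ctrl libraries in 5 of the 32 genes (29.7% of all genes) and below them in 14 (28.9% of all genes).

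**Figure D1:**
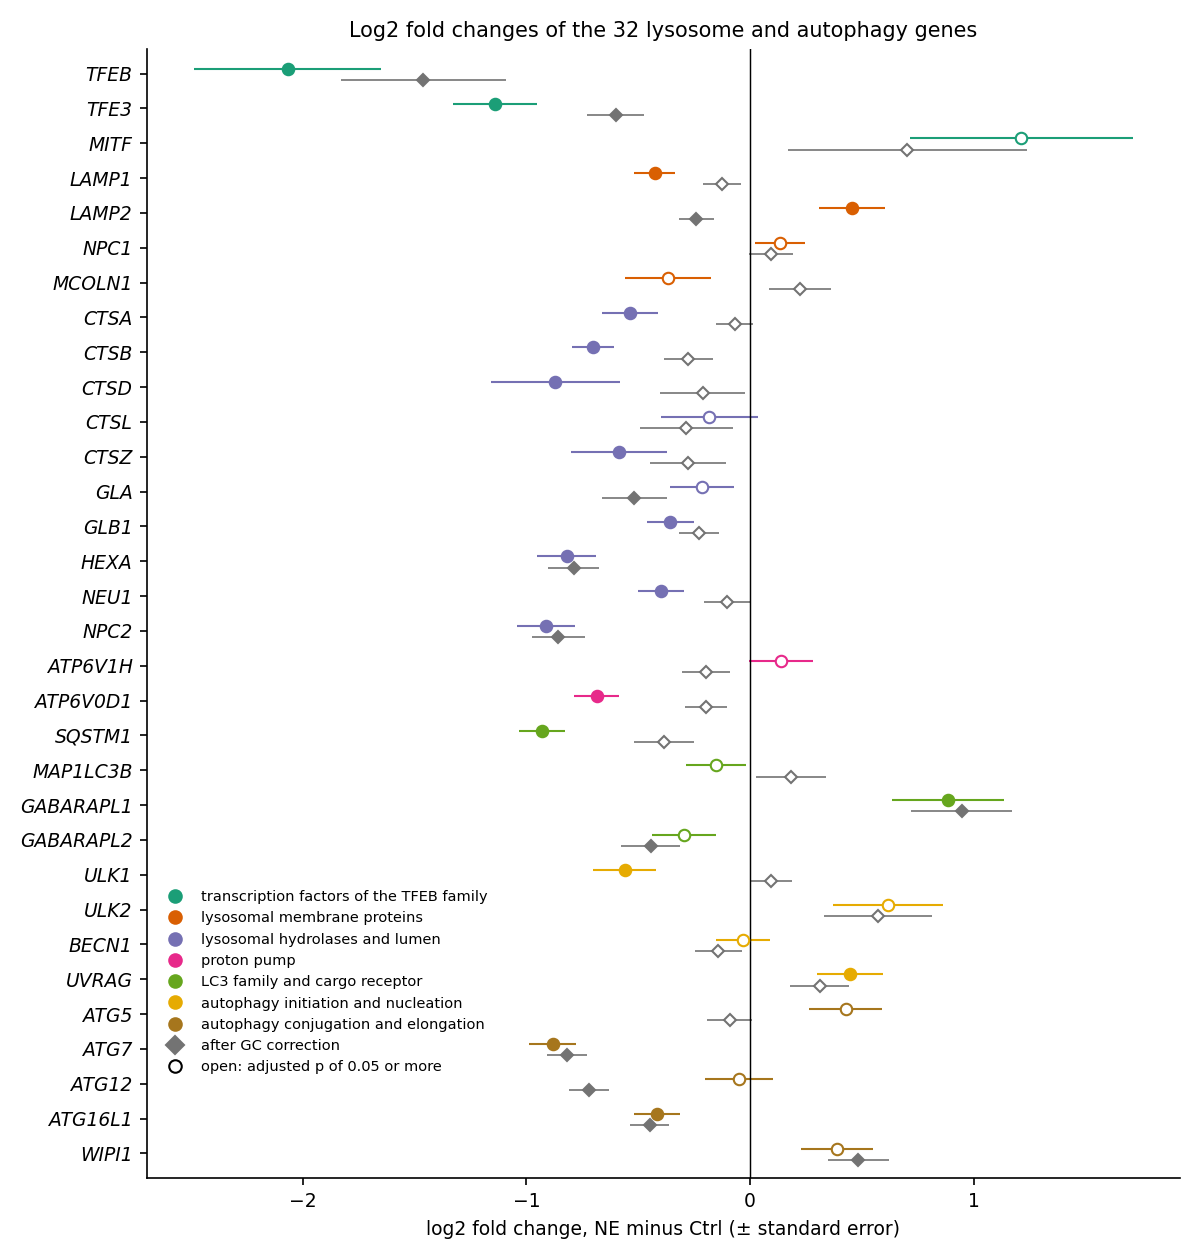
The log2 fold change of NE minus Ctrl is plotted for each of the 32 genes with its standard error, as circles coloured by list, with the value after GC correction as grey diamonds and open symbols for an adjusted p of 0.05 or more. TFEB (-2.07) and TFE3 (-1.14) lie farthest to the left, and LAMP2 lies to the right of 0 as a circle (0.46) and to the left as a diamond (-0.24).

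In the TFEB family, 2 genes were lower and 1 did not pass the test. TFEB, the master factor of lysosome biogenesis, lies on chromosome 6 from 41683978 to 41736259 (hg38, GENCODE v44) and had 68.1, 65.3 and 31.4 normalized counts in Ctrl and 8.89, 17.4 and 10.1 in NE, from 9 to 65 reads per library. Every NE library lay below every Ctrl library, and Ctrl replicate 3 was the lowest Ctrl library. The log2 fold change was -2.07 (SE 0.42, 95% interval -3.01 to -1.12), with an adjusted p of 0.00329 in limma, so the NE level was 23.9% of the Ctrl level on the log2(value + 1) scale.

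TFE3, its close relative, lies on chromosome X from 49028726 to 49043410 and had 2390, 2249 and 1394 normalized counts in Ctrl and 940, 876 and 850 in NE. The groups did not overlap, and Ctrl replicate 3 was again nearest to the NE libraries. The log2 fold change was -1.14 (SE 0.19), with an adjusted p of 0.00126 in limma. Per length of exon, TFE3 was the main member of the family in these cells, with 26.5 recomputed FPKM in Ctrl, compared with 0.452 for TFEB and 0.0585 for MITF.

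MITF, the member best known from melanocytes, lies on chromosome 3 from 69739456 to 69968336 and had 4.19, 11.4 and 7.84 normalized counts in Ctrl and 15.8, 23.2 and 16.4 in NE. All 3 NE libraries lay above the Ctrl libraries, but the counts rest on 4 to 24 reads per library. The log2 fold change was 1.21 (SE 0.50), and MITF did not pass the test (limma adjusted p 0.0685). For TFEB, TFE3 and MITF, as for every gene below whose groups do not overlap, the exact two-sided permutation test gave p = 0.1, the smallest that 3 against 3 samples allow.

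**Figure D2:**
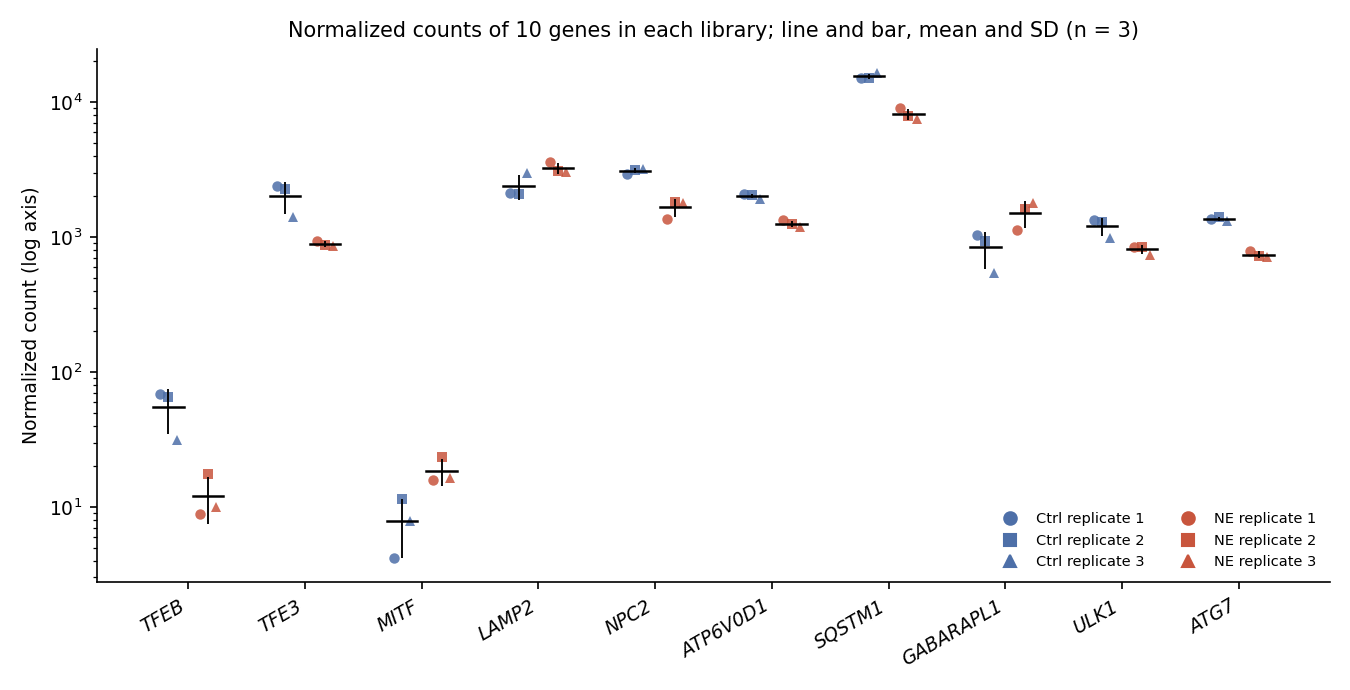
Normalized counts of 10 genes are plotted on a log axis for each library, with Ctrl in blue and NE in red, one symbol per replicate number, and the mean and SD of 3 libraries as a line and a bar. The NE libraries lie below the Ctrl libraries for TFEB, TFE3, NPC2, ATP6V0D1, SQSTM1, ULK1 and ATG7, and above them for MITF, LAMP2 and GABARAPL1.

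The 4 lysosomal membrane proteins showed 1 higher gene, 1 lower gene and 2 that were not called. LAMP2, a major glycoprotein of the lysosomal membrane, lies on chromosome X from 120426148 to 120469365 and had 2102, 2092 and 2960 normalized counts in Ctrl and 3572, 3099 and 3040 in NE. The groups did not overlap, but Ctrl replicate 3 lay just under the lowest NE library. The log2 fold change was 0.46 (SE 0.15), with an adjusted p of 0.0292 in limma. This call was kept when Ctrl replicate 3 was left out (0.62), but was lost when any 1 of the other 5 libraries was left out (adjusted p 0.0568 to 0.111).

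LAMP1, the partner glycoprotein of LAMP2, was lower, from 2959 to 3246 normalized counts in Ctrl and from 2262 to 2327 in NE (log2 fold change -0.43, SE 0.093, limma adjusted p 0.00467). NPC1, which exports cholesterol from the lysosome, had a log2 fold change of 0.13 (95% interval -0.12 to 0.38). MCOLN1, the calcium channel of the lysosome whose opening can activate TFEB, had a log2 fold change of -0.37 (95% interval -0.80 to 0.07). Neither passed the test, and their groups overlapped. Without Ctrl replicate 3, MCOLN1 was called lower (-0.56, limma adjusted p 0.00355).

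Among the 10 hydrolases and lumen proteins, 8 were lower in NE-treated cells, 2 did not pass the test and 0 were higher, compared with 25.5% lower and 24.6% higher among all genes tested. At an unadjusted p under 0.05 in limma, 0 were higher as well. The hydrolases had a median GC content of 50.9% and fell in different GC bands. CTSA, CTSB, CTSD, CTSZ and NEU1 had 50% or more, where 49.2% of all genes were lower. CTSL, GLB1, HEXA and NPC2 lay between 45 and 50%, where 19% of all genes were lower. GLA lay under 45%, where 3.82% were lower. The median log2 fold change was -0.56. NPC2, which hands cholesterol to NPC1, lies on chromosome 14 from 74476192 to 74494177 and had 2951, 3130 and 3211 normalized counts in Ctrl and 1354, 1827 and 1796 in NE. The groups were far apart, with a log2 fold change of -0.91 (SE 0.13, limma adjusted p 0.000646). HEXA, the alpha subunit of the beta-hexosaminidase lost in Tay-Sachs disease, is set in full because its call was kept in every alternative, a choice made after its values were seen. HEXA had 513, 567 and 514 normalized counts in Ctrl and 272, 297 and 335 in NE, with a log2 fold change of -0.82 (SE 0.13, limma adjusted p 0.00107).

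The cathepsins, proteases of the lysosome, varied in how far their groups were apart. CTSB, a cysteine protease, had 6954, 6954 and 7323 normalized counts in Ctrl and 4611, 4367 and 4075 in NE, with a log2 fold change of -0.70 (SE 0.094, limma adjusted p 0.000468). CTSA, which protects NEU1 and GLB1 in a shared complex, fell by 0.54 on the log2 scale (limma adjusted p 0.00668), and the groups did not overlap. CTSD, an aspartic protease, had 1670, 1616 and 715 normalized counts in Ctrl and 603, 753 and 695 in NE. Ctrl replicate 3 lay within the range of the NE libraries, and the log2 fold change of -0.87 (SE 0.29, limma adjusted p 0.0308) became -1.27 without it.

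CTSZ showed the same order as CTSD, with 879, 766 and 487 normalized counts in Ctrl and 390, 499 and 496 in NE (log2 fold change -0.59, SE 0.21, limma adjusted p 0.0455). The calls of CTSD and CTSZ were both lost when any 1 library other than Ctrl replicate 3 was left out (limma adjusted p 0.0583 to 0.119 for CTSD and 0.078 to 0.167 for CTSZ). CTSL had a log2 fold change of -0.18 (95% interval -0.67 to 0.31) and did not pass the test. Its lowest Ctrl library was again replicate 3, with 841 normalized counts compared with 1369 and 1351.

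The other sugar-cleaving enzymes had smaller log2 fold changes than HEXA. NEU1, a sialidase, fell by 0.40 on the log2 scale (limma adjusted p 0.0116), and the call was lost without Ctrl replicate 1 (adjusted p 0.0518). GLB1, a beta-galactosidase, fell by 0.36 (limma adjusted p 0.0191), and the call was lost without Ctrl replicate 2 (0.0894), NE replicate 1 (0.0612) or NE replicate 3 (0.0551). GLA, an alpha-galactosidase, had a log2 fold change of -0.21 (95% interval -0.53 to 0.11) and did not pass the test. Some of these genes share exon bases with a neighbour on the other strand, and it is not stated that the counting used strand, so their reads may not all be their own: 31.7% of the exon bases of CTSZ, 23.4% of CTSD, 21.5% of CTSA and 14.1% of HEXA. A further 27.3% of the exon bases of CTSD overlap a gene on the same strand.

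The 2 pump genes differed. ATP6V0D1, a subunit of the membrane sector of the proton pump that acidifies the lysosome, lies on chromosome 16 from 67438014 to 67481181 and had 2070, 2050 and 1925 normalized counts in Ctrl and 1326, 1248 and 1185 in NE. The groups did not overlap, and the log2 fold change was -0.69 (SE 0.10, limma adjusted p 0.000699). ATP6V1H, a subunit of the cytoplasmic sector, had 896 to 1260 normalized counts in Ctrl and 1056 to 1171 in NE, with a log2 fold change of 0.14 (95% interval -0.18 to 0.46), and did not pass the test.

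The autophagy machinery was mixed, with 2 genes higher, 4 lower and 7 not called of 13, compared with 24.6% higher and 25.5% lower among all genes tested. The median log2 fold change was -0.051. SQSTM1, the cargo receptor also called p62, lies on chromosome 5 from 179806398 to 179838078 and was the most abundant of the 32 genes per length of exon, with 114 recomputed FPKM in Ctrl. It had 15109, 15020 and 16266 normalized counts in Ctrl and 8977, 7913 and 7479 in NE. The groups were far apart, with a log2 fold change of -0.93 (SE 0.10, limma adjusted p 0.000213). Of its exon bases, 22.4% lie opposite another gene.

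Members of the LC3 and GABARAP family, which coat the autophagosome membrane, did not move as 1 group. GABARAPL1 is set in full because it had the largest increase that passed the test, also a choice made after its values were seen. It had 1032, 931 and 544 normalized counts in Ctrl and 1130, 1619 and 1798 in NE, with a log2 fold change of 0.88 (SE 0.25, limma adjusted p 0.016). NE replicate 1 lay close above Ctrl replicate 1, and the call was lost without NE replicate 2 (adjusted p 0.0593) or NE replicate 3 (0.0715). MAP1LC3B had a log2 fold change of -0.15 (95% interval -0.45 to 0.15) and GABARAPL2 one of -0.30 (95% interval -0.62 to 0.03), and neither passed the test. MAP1LC3B has a near copy, MAP1LC3B2, with 114 to 164 normalized counts, so reads of the pair may have been split.

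In the initiation and nucleation steps, 1 gene was lower and 1 higher. ULK1, the kinase that starts autophagy, lies on chromosome 12 from 131894622 to 131923150 and had 1335, 1290 and 987 normalized counts in Ctrl and 848, 841 and 741 in NE. The groups did not overlap, and the log2 fold change was -0.56 (SE 0.14, limma adjusted p 0.00891). ULK2, its paralog, had 72.6 to 125 normalized counts in Ctrl and 110 to 165 in NE, with a log2 fold change of 0.62 (SE 0.25), and did not pass the test (limma adjusted p 0.0644). Without Ctrl replicate 3 it was called higher, with a log2 fold change of 0.84.

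UVRAG, a partner of BECN1 in the class III PI3-kinase complex, had 295, 347 and 387 normalized counts in Ctrl and 523, 421 and 459 in NE (log2 fold change 0.45, SE 0.15, limma adjusted p 0.0314). The groups did not overlap, but the call was lost without Ctrl replicate 1 or 2 or NE replicate 1 or 3 (adjusted p 0.0725 to 0.12). BECN1 itself had a log2 fold change of -0.031 (95% interval -0.30 to 0.24).

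The conjugation genes showed a decrease of ATG7, the E1-like enzyme that both conjugation reactions need. ATG7 lies on chromosome 3 from 11272309 to 11557665 and had 1368, 1400 and 1318 normalized counts in Ctrl and 790, 722 and 705 in NE. The spread within each group was small beside the difference, with a log2 fold change of -0.88 (SE 0.10, limma adjusted p 0.000284). ATG16L1, which places the conjugation complex on the membrane, fell by 0.42 (limma adjusted p 0.0092), and its groups did not overlap. ATG5 (log2 fold change 0.43, SE 0.16, limma adjusted p 0.0527), ATG12 (-0.051, SE 0.15, 0.797) and WIPI1, which binds the phospholipid that the PI3-kinase makes (0.39, SE 0.16, 0.0729), did not pass the test. Exon bases opposite another gene made up 18.1% in ATG7 and 28.1% in WIPI1.

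The values of Ctrl replicate 3 touched many of these results. It was the Ctrl library nearest to the NE mean in 18 of the 32 genes (56.2%) and in 55.9% of all genes tested. Without it, 6 of the 32 genes were higher, compared with 31.8% of all genes, and 18 were lower, compared with 32.6% of all genes. Not called with all libraries, ATG5 (0.62, limma adjusted p 5.1e-05), ATP6V1H (0.29, 0.015) and ULK2 (0.84, 0.00334) were then higher. MCOLN1 (-0.56, limma adjusted p 0.00355) and CTSL (-0.41, 0.0213) were then lower. Of the hydrolases and lumen proteins, 9 of 10 were then lower, with a median log2 fold change of -0.67. Of the autophagy genes, 4 were then higher and 4 lower, with a median of -0.004.

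The calls also followed the GC content of the exons. Of the 13 genes with a GC content of 50% or more, 11 were lower and 0 higher, compared with 49.2% lower and 3.62% higher among all genes in that band. Of the 13 genes between 45 and 50%, 5 were lower and 2 higher, compared with 19% lower and 17.1% higher. Of the 6 genes under 45%, 0 were lower and 1 was higher, compared with 3.82% lower and 50.1% higher. The hydrolases had a median GC content of 50.9% and the autophagy genes one of 47.3%.

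After the trend with GC content was removed from each library, 2 of the 32 genes were higher, compared with 14.5% of all genes, and 10 were lower, compared with 17.7% of all genes. Genes lower in both fits were TFEB, TFE3, HEXA, NPC2, ATG7 and ATG16L1, 6 in all, and GABARAPL1 was the 1 gene higher in both. The corrected log2 fold change was -1.46 for TFEB (limma adjusted p 0.0144), -0.60 for TFE3 (0.0065), -0.79 for HEXA (0.000912), -0.86 for NPC2 (0.000672), -0.82 for ATG7 (0.000216), -0.45 for ATG16L1 (0.00387) and 0.95 for GABARAPL1 (0.011). After correction, TFE3 no longer reached a log2 fold change of 1 in size, while TFEB did.

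Other genes lost their call or moved the other way after the correction. LAMP2 went from 0.46 to -0.24 (limma adjusted p 0.0417), so its direction depends on this choice. ULK1 went from -0.56 to 0.095 (0.463), and SQSTM1 went from -0.93 to -0.38 (0.0524). CTSB (-0.28, 0.0782), CTSA (-0.069, 0.553), CTSD (-0.21, 0.421), LAMP1 (-0.12, 0.293) and ATP6V0D1 (-0.20, 0.138) no longer passed the test. The same held for CTSZ, GLB1, NEU1 and UVRAG. ATG12 (-0.72, 0.000453), GLA (-0.52, 0.0236), GABARAPL2 (-0.44, 0.0276) and WIPI1 (0.48, 0.0235) passed it after the correction but not before. The median over the 10 hydrolases and lumen proteins became -0.28, with 3 lower, and that over the 13 autophagy genes became -0.090, with 2 higher and 4 lower.

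Of the 6 genes with CACGTG in the windows shown above, 5 were lower and 1, MCOLN1, was not called, compared with 25.5% lower among all genes and 49.2% lower among all genes with a GC content of 50% or more. Their GC content ran from 52.2 to 63.9%. After the GC correction 0 of the 6 were called, compared with 14.5% higher and 17.7% lower among all genes. Of the 2 genes with TGACGTCA, GABARAPL1 was higher in both fits and MITF was called in neither.

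Beyond the 32 genes, 168 other genes of the pathway were listed, of which 164 were tested. The counts of the 9 lists stand beside 24.6% higher and 25.5% lower among all genes tested, and beside 14.5% and 17.7% after the GC correction. Among 39 other lysosomal hydrolases, 6 were higher and 13 lower, with a median log2 fold change of -0.025. CTSK, a collagen-cleaving cathepsin, had 32.5, 25.9 and 11.8 normalized counts in Ctrl and 52.4, 59.1 and 92.3 in NE (log2 fold change 1.57, SE 0.40, limma adjusted p 0.0104). CTSS (-1.48, limma adjusted p 0.0415, at most 20.7 normalized counts) and PLA2G15, a lysosomal phospholipase (-1.17, 0.000179), fell. After the GC correction 3 of the 39 were higher and 4 lower, CTSK was no longer called (1.22, 0.0548), and CTSS (-1.998, 0.0266) and PLA2G15 (-0.63, 0.011) still were. The call of CTSS was kept in only 2 of the 6 fits that left out 1 library.

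Among 22 other lysosomal membrane proteins, 4 were higher and 5 lower. CD63, a tetraspanin of late endosomes, fell by 1.06 (limma adjusted p 0.000264), and OSTM1, the beta subunit of the chloride transporter CLCN7, rose by 0.94 (0.00524). Both were called after the GC correction too (-0.52 and 0.50), with 5 of the list higher and 2 lower. Among 15 other pump subunits, 3 were higher and 5 lower. ATP6V0B fell by 0.94 (limma adjusted p 0.000249), while ATP6V0C, which fell by 1.56 (0.0459), had at most 45.6 normalized counts and shares 76.3% of its exon bases with other genes on its strand. After the GC correction 1 of the 15 was higher and 4 lower, with ATP6V0B at -0.46 (0.0159) and ATP6V0C no longer called (-0.89, 0.229). Among 11 genes that sort lysosomal enzymes, 4 were higher and 4 lower, led by GNPTAB, which builds the mannose 6-phosphate tag (1.40, 0.000155), and LMAN1, a cargo receptor of the secretory pathway (0.92, 0.000595). After the GC correction 4 were higher and 1 lower, with GNPTAB at 0.96 (0.00016) and LMAN1 at 0.24 (0.0411).

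Upstream of TFEB, among 25 genes of nutrient sensing on the lysosome, 8 were higher and 9 lower. LAMTOR2 and LAMTOR4, subunits of the Ragulator complex that holds mTORC1 on the lysosome, fell by 1.02 (limma adjusted p 0.000906) and 1.03 (0.00169). PRKAA2, a catalytic subunit of AMPK, rose by 1.03 (0.0111). After the GC correction 3 of the 25 were higher and 7 lower. Of these genes, LAMTOR2 and LAMTOR4 passed the test after the GC correction too, with log2 fold changes of -0.58 and -0.52, and PRKAA2 did not (0.32, adjusted p 0.175).

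Among 17 other initiation and nucleation genes, 6 were higher and 4 lower. RB1CC1, the scaffold of the ULK complex, had 1324, 1318 and 1691 normalized counts in Ctrl and 4281, 3412 and 3270 in NE (log2 fold change 1.34, SE 0.14, limma adjusted p 0.000186). Together with ULK1, which had a log2 fold change of -0.56, the kinase and its scaffold thus had opposite signs before GC correction. After GC correction RB1CC1 had a log2 fold change of 0.70 (0.000662), and ULK1 had one of 0.095 and was not called (0.463). ATG2B, a lipid transfer protein, rose by 1.30 (0.000294), and WDR45, a WIPI family member, fell by 1.13 (9.7e-05). After the GC correction 6 of the 17 were higher and 2 lower, with ATG2B at 0.88 (0.000562) and WDR45 at -0.62 (0.00164).

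In the 9 other conjugation genes, 2 were higher and 2 lower, with ATG4C at 0.87 (limma adjusted p 0.00702) and ATG4D at -0.69 (0.00263), both proteases that process LC3. Neither was called after the GC correction (ATG4C 0.14, 0.466, and ATG4D -0.020, 0.913), and limma then called 0 genes of this list higher and 0 lower, with 0 higher and 1 lower at an unadjusted p under 0.05. Among 12 other cargo receptors, 6 were higher and 3 lower, with CCPG1, a receptor for the endoplasmic reticulum, at 1.45 (0.000288) and TAX1BP1 at 0.93 (0.000452). After the GC correction 4 were higher and 1 lower, with CCPG1 at 0.91 (0.00121) and TAX1BP1 at 0.56 (0.00136). Among 14 genes of autophagosome fusion, 2 were higher and 6 lower, with STX17, the SNARE of the autophagosome, at 0.76 (0.00532) and VPS16, a subunit of the HOPS tether, at -0.84 (0.00051). Both calls were lost after the GC correction (STX17 0.29, 0.214, and VPS16 -0.32, 0.115), and limma then called 0 of the 14 higher, also at an unadjusted p under 0.05, and 2 lower.

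**Figure D3:**
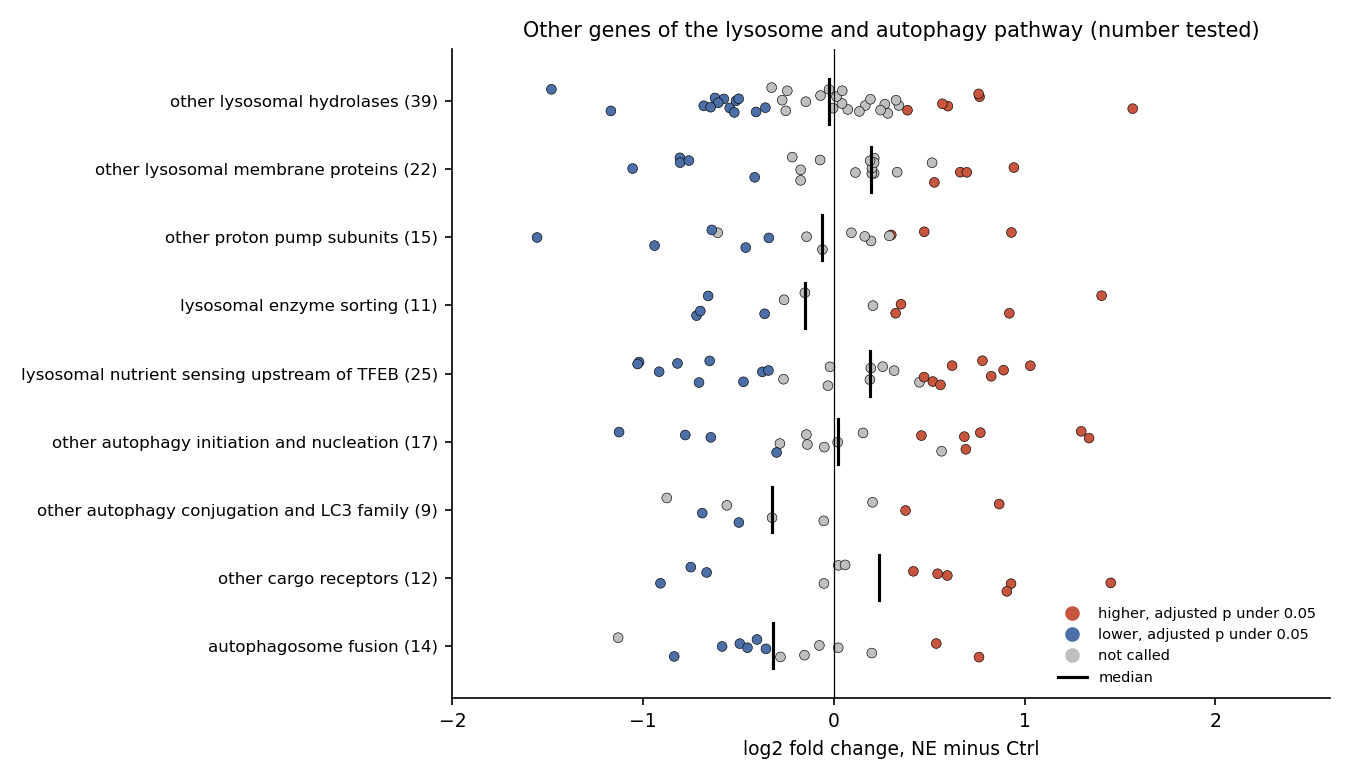
Each point is the log2 fold change of 1 tested gene of the other pathway lists, red for higher and blue for lower at an adjusted p under 0.05 in limma, grey for not called, with the median of a list as a black line. Each of the 9 lists holds both red and blue points, and the medians run from -0.32 to 0.24.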

How the data were processed

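Total RNA of 6 NCI-H1299 samples, 3 Ctrl and 3 NE, was sequenced. The authors aligned reads to hg38 with HISAT2 2.0.5 and counted them per gene with featureCounts 1.5.0-p3. Strand use and trimming of the counts are not given in the sources used here. The deposited table is named for FPKM, but its values are a normalized signal, read counts per gene that were each divided by the size factor of the library (0.955 to 1.09), since removing this factor gave whole reads, within 0.001, for 100% of the values. Of the 26025 genes, 25813 matched GENCODE v44, which gave positions, exon lengths and GC content.

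The values were compared as log2(value + 1) in limma 3.58.1 (lmFit, eBayes with trend) over genes with a mean of at least 10, and p-values were adjusted after Benjamini and Hochberg over all 15013 genes tested. Changes of low genes are understated on this scale. For the GC correction, a natural spline of exon GC content with 5 degrees of freedom was fitted to the log2 values of each library and subtracted. FPKM were recomputed from the recovered reads with merged exon lengths and serve to compare levels between genes. The fits were tested on simulated counts. These held no library that stood apart as Ctrl replicate 3 did, and for the GC correction a trend was added only to the NE libraries. Alternatives were a pseudocount of 0.1 or 5, no minimum or one of 50, median-ratio and quantile scaling, recomputed FPKM, eBayes without trend or robust, blocking by replicate number, leaving out 1 library at a time, count tests on the recovered reads (voom, edgeR 4.0.16, DESeq2 1.42.0), and GC correction alone, with exon length, with the block or without Ctrl replicate 3.

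The genes and lists were chosen with earlier results of these data known. By rule, all 32 genes are named, and a gene is given in every sample if it belongs to the TFEB family, passes the test with a log2 fold change of 1 or more in either direction, or has the largest change that passes in its list. From each other list, genes past the fold criterion and at least the 2 with the largest change are named. HEXA and GABARAPL1 were set in full, and CTSB, CTSD, CTSZ and UVRAG given by sample, after their values were seen.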

Additional observations from a re-analysis of the deposited data

How the results depend on the processing

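Of 23 alternatives, all kept TFE3, HEXA, NPC2 and ATG7 lower, and all of the 22 that tested TFEB kept it lower. TFEB and MITF fell under a minimum mean of 50 and were not tested there. The 3 genes called higher became 6 with recomputed FPKM, 1 with eBayes without trend, 5 with GC correction on 5 libraries, and 0 to 6 when 1 library was left out, with 0 without NE replicate 3, 1 without Ctrl replicate 1 or NE replicate 1, and 6 without Ctrl replicate 3. The 16 called lower became 10 with GC correction, 11 with recomputed FPKM, 14 with eBayes without trend, and 13 to 18 when 1 library was left out. The median of the 32 genes (-0.36) became -0.22 with recomputed FPKM, -0.20 with GC correction, -0.24 with GC and length correction, -0.18 with GC correction on 5 libraries, and -0.40 to -0.29 when 1 library was left out, the last without NE replicate 1. Recomputed FPKM shifted the median of all genes to 0.13. Calls over all genes also moved between settings, from 3693 higher and 3828 lower of 15013 in the main fit. Recomputed FPKM gave 4457 and 2942 of 14955, and eBayes without trend gave 3452 and 3507. GC correction gave 2174 and 2641, and GC and length correction gave 1887 and 2521. GC correction on 5 libraries gave 2887 and 3426. Leaving out 1 library gave 2715 to 4780 higher and 2958 to 4894 lower. The 8 hydrolases called lower became 4 with FPKM, 3 with GC correction, 4 with GC and length correction, and 5 to 9 when 1 library was left out, with 5 without Ctrl replicate 1 or 2 or NE replicate 1 or 3. Their median (-0.56) became -0.41, -0.28 and -0.37 in those 3 settings. The 2 autophagy genes called higher became 4 with FPKM, 0 with eBayes without trend, 5 with GC correction on 5 libraries, and 0 to 4 when 1 library was left out, with 0 without NE replicate 3. Their median (-0.051) became 0.084 with FPKM.

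Replicate numbers did not pair the libraries, since Ctrl and NE libraries of the same number had deviations correlated at -0.16, 0.08 and -0.15. With the replicate block, 1 gene was called higher (1 of the autophagy genes) and 15 lower. Over all genes, the block gave 3150 higher and 3358 lower of 15013, and 1601 and 2003 of 14955 with GC correction. GC correction with the block gave 9 lower, 3 of them hydrolases, with medians of -0.20 over the 32 genes and -0.28 over the hydrolases.

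Signs turned in the single genes as follows, and the cause was not tested. The 4 values are in the order GC correction, GC and length correction, GC correction with the block, and GC correction on 5 libraries. LAMP2 had -0.24, -0.32, -0.24 and -0.23, MCOLN1 had 0.23, 0.26, 0.23 and 0.14, ATP6V1H had -0.20, -0.18, -0.20 and -0.11, MAP1LC3B had 0.18, 0.18, 0.18 and 0.39, and ATG5 had -0.090, -0.082, -0.090 and -0.002. ULK1 had 0.095, 0.095 and 0.094 in these settings but GC and length correction, which gave -0.028. NPC1 had -0.013 with GC and length correction. MAP1LC3B had 0.034 with quantile scaling. BECN1 had 0.10 with FPKM and 0.008 without Ctrl replicate 2 or NE replicate 1, in a range of -0.094 to 0.008 when 1 library was left out. ATG12 had 0.084 with FPKM and 0.12 without Ctrl replicate 3. Depth limits TFEB and MITF, with at most 65 and 24 reads per library.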
